A study of Homo sapiens with 12 samples.

Results

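The 37 genes described here encode the proteins that bring glucose into the cell, split it to pyruvate, turn pyruvate to lactate or pass it to the mitochondria, and divert glucose to the pentose phosphate pathway or to glycogen. They were chosen by name, with earlier results of these data known, and matched to the gene symbols of the deposited count table. All 37 were found among its 17197 symbols, and all 37 were among the 13171 genes that passed the filter on low counts. RNA was sequenced from AC16, an established human line derived from adult ventricular heart cells fused with fibroblasts, in 12 libraries that form 4 groups of 3. The siEP300.H2O2 cells were given an siRNA against EP300 and then hydrogen peroxide (H2O2), and the siNC.H2O2 cells a negative control siRNA and then H2O2. The siEP300 cells were given the EP300 siRNA alone, and the siNC cells the control siRNA alone. All 4 groups were therefore transfected, with the jetPRIME reagent and in medium lacking serum, and the culture medium is described as high in glucose. H2O2 followed 12 h after transfection and lasted 1 h at 200 mM as labelled, though that unit may not be right, before complete medium was put back and RNA was taken after 48 h. Whether the 3 libraries of each group are separate cultures is not labelled, so the p-values speak of the scatter among those libraries alone, which may be technical.

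Glycolysis converts glucose to pyruvate in the cytosol with a net gain of ATP, and its committed step, phosphofructokinase, is activated by a regulatory fructose bisphosphate that the PFKFB enzymes make and TIGAR removes. The pentose phosphate pathway draws on the same hexose phosphate to make NADPH, which cells use to reduce peroxides. Heart muscle normally burns mostly fatty acids and leans on glycolysis when oxygen is short. EP300 is a lysine acetyltransferase and a coactivator of many transcription factors, among them the hypoxia-inducible factors (HIF), which are known to raise glucose transporters, most glycolytic enzymes, LDHA and PDK1.

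The knockdown was checked first. EP300 had 30.1, 26.9 and 26.5 CPM in siEP300.H2O2 libraries, against 59.9, 80.4 and 89.9 CPM in siNC.H2O2 libraries, and 36.3, 36.8 and 36.7 CPM in siEP300 libraries, against 101, 69.1 and 80.1 CPM in siNC libraries. The groups did not overlap, and 36.3% of EP300 RNA was left with H2O2 and 43.9% without (edgeR adjusted p = 5.85e-07 and 3.60e-06). In another label field the target is written as MLF1, and MLF1 stood at 82.0% of its control level with H2O2 and 86.1% without. Both MLF1 differences were also called (edgeR adjusted p = 0.000686 and 0.00519), and its siRNA and control libraries did not overlap. CPM are counts scaled to a common library total after TMM scaling. The deposited counts summed to between 16081437 and 19033679 per library. Within groups, the main axis of variation held 28.6% of the within-group variance, with siNC replicate 1 (score 17.6) and siNC.H2O2 replicate 7 (-13.9) at its ends. Of 17 cardiomyocyte markers, 4 reached 1 FPKM (the deposited level per transcript length) as a mean over the 12 libraries, namely NPPB, GATA4, DES and TNNC1. Of the sarcomere genes, TNNT2, MYH6, MYH7 and MYL2 had at most 0.16 FPKM in any library, while TNNC1 had 2.03, 3.73 and 2.01 FPKM in siNC libraries and TNNI3 0.21 to 1.26 FPKM over all libraries. The sum of the 17, mostly the peptide gene NPPB, was 93.0 to 113 FPKM in siEP300.H2O2, 119.8 to 158 in siNC.H2O2, 93.8 to 99.7 in siEP300 and 118 to 120.5 in siNC libraries. All 10 fibroblast markers reached 1 FPKM, with sums of 907 to 921 FPKM in siEP300.H2O2, 1055 to 1166 in siNC.H2O2, 1385 to 1430.0 in siEP300 and 1351 to 1456 in siNC libraries. Smooth muscle markers (4 of 5 at 1 FPKM) summed to 219.8 to 268, 186 to 208, 183 to 184 and 146 to 154 FPKM in the same order of groups, epithelial markers (4 of 5) to 380.4 to 439, 481 to 517, 279 to 285 and 314 to 349, endothelial markers (1 of 6) to no more than 3.42 and leukocyte markers (1 of 3, CD68) to 45.7 to 53.6, 32.6 to 33.1, 27.3 to 30.1 and 20.8 to 26.2. COL1A1 made up most of the fibroblast sums, at means of 542, 735, 820 and 870 FPKM in that order. Without H2O2, COL1A2 averaged 311 FPKM in siEP300 and 190 in siNC libraries, but LUM 36.6 and 73.6. Of the 10 fibroblast markers, 3 were called higher there and 3 lower, against 30.1% and 31.4% of all genes (edgeR adjusted p under 0.05). Among smooth muscle markers, CNN1 averaged 13.1, 32.9, 12.7 and 36.9 FPKM and TAGLN 165, 107, 133 and 80.5 in the same order. The part of these marker shifts in the results below was not tested, and in bulk RNA fewer cells of a kind cannot be told from less RNA per cell.

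Promoters of 4 genes are printed as examples: LDHA, PDK1 and ALDOC, which fell after EP300 siRNA, and GYS1, which rose. Each window runs from 250 bases before to 50 after a RefSeq start (GRCh38.p14), 5′ to 3′ on the gene's strand, and capitals mark the hypoxia-type core letters ACGTG or GCGTG on either strand (read as CACGT or CACGC when on the other). LDHA is at chr11:18394313-18394612 on the plus strand, PDK1 at chr2:172555840-172556139 on the plus strand, ALDOC at chr17:28576846-28577145 on the minus strand and GYS1 at chr19:48993260-48993559 on the minus strand.
LDHA: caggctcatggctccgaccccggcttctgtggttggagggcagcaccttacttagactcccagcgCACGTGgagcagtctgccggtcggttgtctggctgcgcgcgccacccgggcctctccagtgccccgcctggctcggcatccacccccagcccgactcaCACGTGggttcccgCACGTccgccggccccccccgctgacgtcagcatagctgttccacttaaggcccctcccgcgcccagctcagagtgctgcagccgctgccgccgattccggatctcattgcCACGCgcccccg
PDK1: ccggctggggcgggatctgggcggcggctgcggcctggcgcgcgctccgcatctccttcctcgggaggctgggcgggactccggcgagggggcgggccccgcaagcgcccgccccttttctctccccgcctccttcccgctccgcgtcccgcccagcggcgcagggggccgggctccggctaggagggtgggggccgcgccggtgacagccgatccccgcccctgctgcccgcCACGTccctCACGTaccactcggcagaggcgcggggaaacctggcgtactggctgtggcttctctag
ALDOC: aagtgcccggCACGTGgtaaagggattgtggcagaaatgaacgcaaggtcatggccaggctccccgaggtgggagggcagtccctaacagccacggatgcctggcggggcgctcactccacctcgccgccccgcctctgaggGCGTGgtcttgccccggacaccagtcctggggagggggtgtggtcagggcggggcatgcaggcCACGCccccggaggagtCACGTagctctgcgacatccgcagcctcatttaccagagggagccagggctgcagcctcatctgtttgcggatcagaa
GYS1: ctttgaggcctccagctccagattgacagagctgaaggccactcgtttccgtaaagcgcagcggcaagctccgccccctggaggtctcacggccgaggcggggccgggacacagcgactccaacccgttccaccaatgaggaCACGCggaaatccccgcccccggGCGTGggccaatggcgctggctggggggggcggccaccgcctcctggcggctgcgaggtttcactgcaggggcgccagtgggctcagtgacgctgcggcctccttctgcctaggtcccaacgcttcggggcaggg

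The LDHA window held 6 matches, ALDOC 5, and PDK1 and GYS1 2 each, where the palindrome CACGTG counts once per strand and so as 2 overlapping matches. GYS1, whose RNA moved the other way, thus held as many matches as PDK1. LDHA and PDK1 have another window each in the table, with 1 and 0 matches, and for both the window with more matches is the one printed. Of other genes that fell, PFKFB3 had 1 and 2 matches in its windows, PFKFB4 1, PDK3 2, GBE1 3, and HK1 1 in 2 of its 7 windows and 0 in the others. Over all members, 34 genes had 66 windows of 300 bases in the table, and 42 windows (63.6%) held the letters, against 48.4% of all 35116 windows. By gene, 31 of 34 members held a match in some window, against 52.4% of all 27305 genes with a window. Members with several windows have more chances. This background was not limited to the genes tested, so the share among expressed genes is not known here. CACGTG alone was in 10.6% of member windows and 7.26% of all windows. The antioxidant-type letters TGACNNNGC were in 12.1% and 13.3%. PFKFB2, SLC2A3 and SLC16A1 had no window there. A match describes letters in a window and is not a binding site.

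After EP300 siRNA most of the set was lower. With H2O2, 24 of the 37 genes were called lower in siEP300.H2O2 than in siNC.H2O2 cells, against 30.6% of all genes tested, and 8 were called higher, against 28.4% (edgeR adjusted p under 0.05). Without H2O2, 19 were called lower in siEP300 than in siNC cells, against a background of 31.4%, and 8 higher, against 30.1%. The median log2 fold change of the set was -0.32 with H2O2 and -0.18 without, beside -0.0186 and -0.0042 for all 13171 genes. At a fold of at least 1.5, 10 members were lower with H2O2 (14% of all genes) and 1 higher (8.94%), and without it 6 were lower (14.7%) and 2 higher (9.63%). All 19 genes called lower without H2O2 were also called lower with it (25.1% of all genes were lower in both), and the 8 called higher were the same genes in both (23.4% of all genes). These siRNA comparisons share no library. Because the set was chosen with earlier results of these data known, its counts beside the background describe it and do not test it.

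The lower genes spanned the pathway from hexokinase to lactate export: LDHA, PDK1, PFKFB3, PFKFB4, ALDOC, PDK3, SLC16A1, HK1, SLC16A3, TPI1, ENO1, GPI, GBE1, PDK2, PGM1, PGAM1, PFKP, PKM and PGD in both comparisons, with SLC2A1, HK2, PGK1, MPC1 and PDHA1 called with H2O2. The higher genes were SLC2A3, GYS1, MPC2, TKT, TIGAR, GAPDH, PFKL and PFKM. PFKFB2, ALDOA, ENO2, LDHB and TALDO1 were called in neither. Summed over the 37 genes, the set took 1.63% to 1.74% of all counts in siEP300.H2O2, 1.93% to 2.11% in siNC.H2O2, 1.67% to 1.72% in siEP300 and 1.93% to 2.02% in siNC libraries, so the siEP300 groups lay below their controls in every library.

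GC content moved with this contrast. The members' transcripts have a median GC of 52.9%, against 48.3% over all genes tested, and GC-rich genes had lower fold changes, with a Spearman rho of -0.31 with H2O2 and -0.35 without over 12868 genes, a description over genes that share libraries. With offsets for GC and length, chosen after seeing the data, 20 members were lower and 9 higher with H2O2, and 15 lower and 10 higher without, with medians of -0.20 and -0.08 beside 0.04 for all genes in each comparison. The shares of all 12868 genes called in that fit are not given here. These member counts therefore stand without a background, and the shares of the main fit do not serve as one. PDK2, PFKP and PGD lost their calls in both comparisons under these offsets, PGAM1 with H2O2, and PKM and SLC16A3 without H2O2, while TALDO1 gained a call in both, and ALDOA (higher) and PGK1 (lower) without H2O2. Other called log2 fold changes moved by over 1.5 times and kept their call: with H2O2, PFKL to 0.91, GAPDH to 0.56, TKT to 0.49, PFKM to 0.24, TPI1 to -0.27, GPI to -0.21, PKM to -0.25, HK2 to -0.20 and SLC16A3 to -0.18. Without H2O2, PFKL moved to 0.63, GAPDH to 0.59, TPI1 to -0.23, PGAM1 to -0.14 and ALDOC to -0.49, the last then under 1.5-fold.

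**Figure D1:**
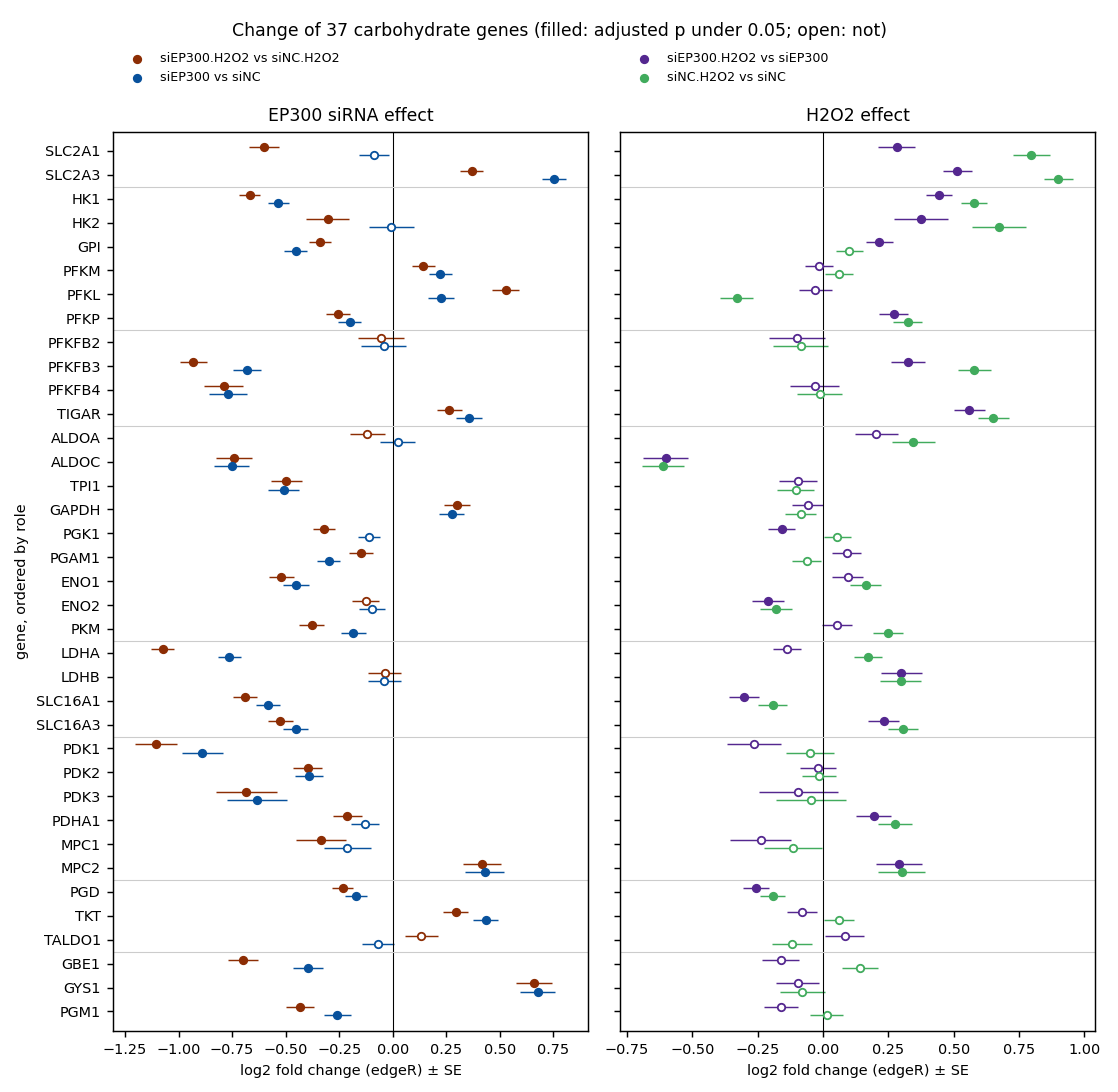
Log2 fold change (x axis, edgeR, with its standard error as a bar) of each of the 37 genes (y axis, ordered by role with lines between roles), left for EP300 siRNA with and without H2O2 and right for H2O2 with EP300 and with control siRNA; filled points are called at an adjusted p under 0.05. Most points of the left panel lie below 0, with PDK1 (-1.10 with H2O2) and LDHA (-1.07) the lowest, while GYS1 lies highest with H2O2 (0.66) and SLC2A3 without (0.75).

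H2O2 alone moved the set less, with more members called higher than lower. In siNC.H2O2 against siNC cells, 15 members were called higher, against 17.8% of all genes, and 5 lower, against 17.4%. In siEP300.H2O2 against siEP300 cells 12 were called higher, against 15.9%, and 5 lower, against 15.1%. The medians were 0.06 and -0.02, so the calls sat at both ends of a set centred near 0. At a fold of at least 1.5, 4 members rose with the control siRNA (4.59% of all genes) and 1 fell (4.43%), and with the EP300 siRNA none rose (3.42%) and 1 fell (4.19%). The 1 that fell was ALDOC each time, near the 1.5-fold line (0.585 on the log2 scale), which it missed with EP300 siRNA without siEP300 replicate 4 (-0.57) or siEP300.H2O2 replicate 10 (-0.58) or 11 (-0.55), and with control siRNA without siNC replicate 2 (-0.52). Called higher with both siRNAs were 11 genes (10.4% of all genes): SLC2A1, SLC2A3, HK1, HK2, PFKP, PFKFB3, TIGAR, LDHB, SLC16A3, PDHA1 and MPC2. Called lower with both were ALDOC, ENO2, SLC16A1 and PGD (9.3% of all genes were). The siNC libraries serve both siEP300 against siNC and siNC.H2O2 against siNC, and the siNC.H2O2, siEP300 and siEP300.H2O2 libraries are shared by pairs of comparisons in the same way, so likeness between such pairs is not read here. Several H2O2 calls turned on the method. With control siRNA, ENO1, LDHA, SLC16A1, ENO2, PGD and MPC2 lost theirs when only the 2 groups were fitted (edgeR adjusted p = 0.0532 to 0.134), ENO1, LDHA, MPC2 and PDHA1 under both limma fits of log2 FPKM (limma adjusted p = 0.0568 to 0.376), and ENO1, LDHA, LDHB, SLC16A1 and MPC2 without both siNC replicate 1 and siNC.H2O2 replicate 7 (edgeR adjusted p = 0.0518 to 0.231). With EP300 siRNA, GPI, MPC2 and PDHA1 lost theirs under both limma fits (limma adjusted p = 0.0563 to 0.291) and PGK1 with GC and length offsets (edgeR adjusted p = 0.0609). In the other direction, LDHA, PGM1, ALDOA, PDK1 and GBE1, not called for H2O2 with EP300 siRNA, were called in 9, 8, 7, 6 and 3 of 21 alternatives, all lower but ALDOA.

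By deposited FPKM, the lower part of the pathway was the most abundant. In siNC libraries GAPDH stood first at a mean of 3649 FPKM, followed by ENO1 at 2181, TPI1 at 1508, PKM at 1079 and ALDOA at 1031, and PDK3 (2.31) and PFKFB2 (1.93) stood last. How reads shared with near-identical copies were counted is not given; SLC2A3 is nearly identical to SLC2A14, and GAPDH, ENO1, PGAM1, TPI1, PKM, ALDOA, PGK1, LDHA and LDHB have processed pseudogenes, so their levels carry that uncertainty.

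The glucose transporters took different courses. SLC2A1 (chr1:42925375-42959176, minus strand, GRCh38), the widely expressed basal glucose transporter, had 97.9, 112 and 118 CPM in siEP300.H2O2 libraries, against 154, 176 and 167 CPM in siNC.H2O2 libraries. Without H2O2 it had 92.7, 86.4 and 90.0 CPM in siEP300 libraries, against 99.0, 93.1 and 93.7 CPM in siNC libraries. The siNC.H2O2 libraries stood above the other 9, and the siEP300 libraries lay just under the siNC libraries without overlapping them. EP300 siRNA left 65.9% of the SLC2A1 level with H2O2 (log2 fold change -0.60 ± 0.07 (SE), edgeR adjusted p = 3.45e-06) and 94.2% without, which was not called (log2 fold change -0.09 ± 0.07 (SE), edgeR adjusted p = 0.302). H2O2 raised SLC2A1 by 0.28 on the log2 scale in EP300 siRNA cells and by 0.80 in control siRNA cells (edgeR adjusted p = 0.00726 and 6.59e-07). SLC2A3 (chr12:7919230-7936275, minus strand), a high-affinity glucose transporter best known from neurons, had 277, 250.3 and 269 CPM in siEP300.H2O2 libraries, against 201, 204 and 211 CPM in siNC.H2O2 libraries. Without H2O2, SLC2A3 had 187, 182 and 189 CPM in siEP300 libraries, against 117, 104 and 109 CPM in siNC libraries. Each treatment raised it, and no library of a group reached into another: log2 fold change 0.37 ± 0.06 (SE), edgeR adjusted p = 4.45e-05 for the siRNA with H2O2, and 0.75 ± 0.06 (adjusted p = 3.58e-08) without. H2O2 raised it by 0.51 (log2) with EP300 siRNA and 0.90 with control siRNA. As a share of the summed FPKM of both transporters, SLC2A3 made up 66.2% to 71.2% in siEP300.H2O2, 50.4% to 53.4% in siNC.H2O2, 63.8% to 64.8% in siEP300 and 49.4% to 50.8% in siNC libraries.

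Hexokinase and the upper steps follow. HK1 (chr10:69269984-69401884, plus strand), the constitutive hexokinase that traps glucose as its phosphate, had 257, 256 and 274 CPM in siEP300.H2O2 libraries, against 432, 403 and 416 CPM in siNC.H2O2 libraries. Without H2O2, HK1 had 192, 193 and 194 CPM in siEP300 libraries, against 284, 269 and 285 CPM in siNC libraries. The siNC.H2O2 libraries were highest and the siEP300 libraries lowest, with no overlap in either siRNA comparison. HK1 fell to 62.9% of its control level after EP300 siRNA with H2O2 (log2 fold change -0.67 ± 0.05 (SE), edgeR adjusted p = 3.15e-08) and to 69.1% without (log2 fold change -0.53 ± 0.05 (SE), edgeR adjusted p = 3.56e-07), and H2O2 raised it by 0.44 with EP300 siRNA and 0.58 with control siRNA on the log2 scale. HK2 (chr2:74833981-74893359, plus strand), the inducible hexokinase, had 51.3, 46.9 and 56.2 CPM in siEP300.H2O2 libraries, against 58.8, 62.7 and 69.1 CPM in siNC.H2O2 libraries. Without H2O2, HK2 had 38.8, 38.6 and 41.6 CPM in siEP300 libraries, against 46.8, 33.6 and 39.2 CPM in siNC libraries, with the siEP300 libraries inside the range of the siNC libraries. It was lower after EP300 siRNA with H2O2 (log2 fold change -0.30 ± 0.10 (SE), edgeR adjusted p = 0.0178), a call lost without siNC.H2O2 replicate 9 (-0.24, adjusted p = 0.0731) and without siEP300.H2O2 replicate 11 (-0.24, adjusted p = 0.082). Without H2O2 its difference was -0.01 ± 0.10 (adjusted p = 0.965). H2O2 raised HK2 by 0.37 (log2) with EP300 siRNA, lost without siEP300.H2O2 replicate 12 (0.32, adjusted p = 0.0595), and by 0.67 with control siRNA.

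GPI, which interconverts glucose and fructose phosphates, averaged 349 ± 16.3 CPM in siEP300.H2O2 and 442 ± 21.3 in siNC.H2O2 libraries (SD, n = 3 each), a fall to 79.0% (log2 fold change -0.34 ± 0.05 (SE), edgeR adjusted p = 5.11e-05). Without H2O2 it fell to 73.0%, at 301 ± 1.90 CPM in siEP300 and 412 ± 7.69 CPM in siNC libraries (-0.45 ± 0.05, edgeR adjusted p = 2.89e-06), with a smaller fall under limma (-0.30 on log2(FPKM + 1)). The phosphofructokinase subunits, the committed step, moved apart after EP300 siRNA. PFKL, the liver-type subunit, rose, with a log2 fold change of 0.53 ± 0.06 with H2O2 and 0.23 ± 0.06 without (edgeR adjusted p = 4.97e-06 and 0.006), sizes that GC and length offsets raised to 0.91 and 0.63. PFKM, the muscle-type subunit, rose by 0.14 (log2) and 0.22, with the first call lost without siNC.H2O2 replicate 9 (0.12, adjusted p = 0.0932), without siEP300.H2O2 replicate 12 (0.11, adjusted p = 0.132) and with only the 2 groups fitted (adjusted p = 0.0526). PFKP, the platelet-type subunit, fell, with -0.26 ± 0.06 with H2O2 and -0.20 ± 0.06 without (edgeR adjusted p = 0.00105 and 0.00554), but under GC and length offsets its sign without H2O2 turned to 0.05 (adjusted p = 0.365). PFKP made up 54.7% to 56.0% of the summed phosphofructokinase FPKM in siEP300.H2O2, 64.1% to 65.8% in siNC.H2O2, 49.5% to 51.0% in siEP300 and 56.9% to 58.3% in siNC libraries. H2O2 raised PFKP by 0.27 (log2) with EP300 siRNA and 0.32 with control siRNA, and PFKL fell by 0.33 in siNC.H2O2 against siNC cells (edgeR adjusted p = 0.000972).

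Of the enzymes that set fructose bisphosphate, both inducible PFKFB genes fell after EP300 siRNA and TIGAR rose. PFKFB3 (chr10:6144934-6254644, plus strand), the kinase-dominant form that speeds glycolysis, had 50.3, 46.1 and 48.0 CPM in siEP300.H2O2 libraries, against 86.7, 90.0 and 98.7 CPM in siNC.H2O2 libraries. Without H2O2, PFKFB3 had 38.8, 38.1 and 38.3 CPM in siEP300 libraries, against 62.2, 58.0 and 64.3 CPM in siNC libraries. The siNC.H2O2 libraries stood highest and the siEP300 libraries lowest, without overlap in either siRNA comparison. PFKFB3 fell to 52.5% with H2O2 (log2 fold change -0.93 ± 0.06 (SE), edgeR adjusted p = 1.38e-08) and to 62.5% without (log2 fold change -0.68 ± 0.07 (SE), edgeR adjusted p = 4.62e-07), while H2O2 raised it by 0.33 with EP300 siRNA and 0.58 with control siRNA. PFKFB4 (chr3:48517684-48562015, minus strand), a relative of PFKFB3, had 13.7, 16.3 and 15.7 CPM in siEP300.H2O2 libraries, against 30.0, 24.1 and 24.8 CPM in siNC.H2O2 libraries. Without H2O2, PFKFB4 had 15.7, 15.1 and 15.9 CPM in siEP300 libraries, against 26.4, 26.2 and 27.0 CPM in siNC libraries. The siRNA groups were far apart at both conditions, at 57.9% of control with H2O2 (log2 fold change -0.79 ± 0.09 (SE), edgeR adjusted p = 2.74e-06) and 58.6% without (log2 fold change -0.77 ± 0.09 (SE), edgeR adjusted p = 3.06e-06). H2O2 gave -0.03 ± 0.09 with EP300 siRNA and -0.01 ± 0.09 with control siRNA, neither called. TIGAR (chr12:4307763-4354593, plus strand), a p53 target whose phosphatase removes fructose bisphosphate and favours the pentose phosphate pathway, had 72.4, 75.2 and 73.0 CPM in siEP300.H2O2 libraries, against 60.1, 64.8 and 58.7 CPM in siNC.H2O2 libraries. Without H2O2, TIGAR had 47.8, 51.1 and 50.8 CPM in siEP300 libraries, against 38.9, 37.2 and 40.8 CPM in siNC libraries. The 4 groups formed 4 separate steps. EP300 siRNA raised it by 0.26 ± 0.06 with H2O2 and 0.36 ± 0.06 without on the log2 scale (edgeR adjusted p = 0.00123 and 0.000126), and H2O2 by 0.56 ± 0.06 with EP300 siRNA and 0.65 ± 0.06 with control siRNA (6.69e-06 and 1.11e-06). PFKFB2, the heart-type isoenzyme, was the least abundant member at 1.93 FPKM in siNC libraries and was called in no comparison, with log2 fold changes between -0.10 and -0.04.

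**Figure D2:**
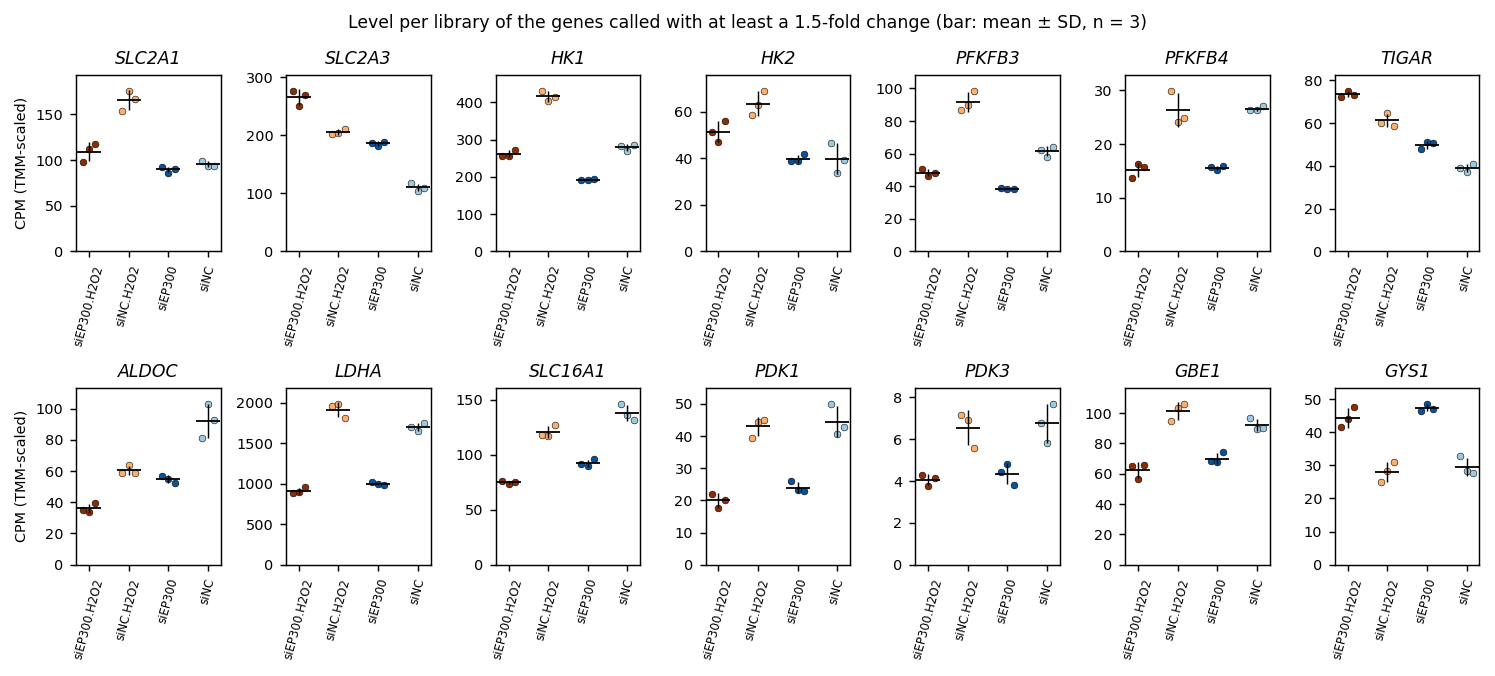
CPM after TMM scaling (y axis, from 0) in each library (points) of the 4 groups (x axis) for the 14 genes called with at least a 1.5-fold change in some comparison; bars give mean ± SD of 3 libraries. SLC2A1, HK1, HK2 and PFKFB3 are highest in siNC.H2O2, PFKFB4, LDHA, PDK1, PDK3, SLC16A1 and GBE1 are low in both siEP300 groups, and GYS1 is high in both.

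In the lower steps, ALDOC was the member that fell under each treatment. ALDOC (chr17:28573115-28577264, minus strand), the brain-type aldolase whose promoter is printed above, had 35.3, 33.8 and 39.3 CPM in siEP300.H2O2 libraries, against 58.5, 63.9 and 59.0 CPM in siNC.H2O2 libraries. Without H2O2, ALDOC had 57.1, 55.0 and 52.4 CPM in siEP300 libraries, against 81.3, 103 and 92.5 CPM in siNC libraries. The siNC libraries were highest and the siEP300.H2O2 libraries lowest. EP300 siRNA left 59.8% with H2O2 (log2 fold change -0.74 ± 0.09 (SE), edgeR adjusted p = 3.10e-06) and 59.4% without (log2 fold change -0.75 ± 0.08 (SE), edgeR adjusted p = 1.74e-06). H2O2 left 65.9% with EP300 siRNA and 65.5% with control siRNA (edgeR adjusted p = 0.000101 and 4.45e-05). ALDOA, the major aldolase with 93.2% to 93.7% of the summed aldolase FPKM in siNC libraries, was called in neither siRNA comparison (-0.12 and 0.02), though GC and length offsets called it higher without H2O2 (0.20, edgeR adjusted p = 0.00387) and the within-group axis called it lower with H2O2 (-0.12, edgeR adjusted p = 0.013). ALDOA rose by 0.35 (log2) in siNC.H2O2 against siNC cells (edgeR adjusted p = 0.00453), and by 0.21 without both siNC replicate 1 and siNC.H2O2 replicate 7.

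The abundant housekeeping steps did not move as a block (mean ± SD, n = 3, with log2 fold changes). TPI1, triose phosphate isomerase, averaged 1002 ± 52.7 CPM in siEP300.H2O2 and 1415 ± 128 CPM in siNC.H2O2 libraries (-0.50, edgeR adjusted p = 3.12e-05), and 1069.9 ± 64.9 CPM in siEP300 and 1521 ± 82.6 CPM in siNC libraries (-0.51, 2.46e-05). ENO1, the main enolase, averaged 2422 ± 124 CPM in siEP300.H2O2 and 3476 ± 234 CPM in siNC.H2O2 libraries (-0.52, edgeR adjusted p = 2.69e-06), and 2269 ± 46.7 CPM in siEP300 and 3104 ± 94.7 CPM in siNC libraries (-0.45, 1.07e-05). Both fell by about the same amount with and without H2O2. GAPDH, the dehydrogenase of glyceraldehyde phosphate and an often used reference gene, averaged 4006 ± 185 CPM in siEP300.H2O2 and 3252 ± 169 CPM in siNC.H2O2 libraries (0.30, edgeR adjusted p = 0.00049), and 4173 ± 70.3 CPM in siEP300 and 3449 ± 202 CPM in siNC libraries (0.27, 0.000963). GAPDH rose, while TPI1 and ENO1 fell, with the sizes under GC and length offsets given above. PGK1, which makes the first ATP of glycolysis, averaged 931 ± 41.6 CPM in siEP300.H2O2 and 1164 ± 40.6 CPM in siNC.H2O2 libraries (-0.32, edgeR adjusted p = 8.07e-05), and 1038 ± 35.9 CPM in siEP300 and 1121 ± 18.0 CPM in siNC libraries (-0.11, 0.0776). PGAM1, phosphoglycerate mutase, averaged 643 ± 37.3 CPM in siEP300.H2O2 and 713 ± 18.7 CPM in siNC.H2O2 libraries (-0.15, edgeR adjusted p = 0.0331), and 604 ± 14.6 CPM in siEP300 and 744 ± 37.8 CPM in siNC libraries (-0.30, 0.000292). PKM, pyruvate kinase of muscle and dividing cells, averaged 1897 ± 77.9 CPM in siEP300.H2O2 and 2467 ± 184 CPM in siNC.H2O2 libraries (-0.38, edgeR adjusted p = 5.76e-05), and 1828 ± 25.4 CPM in siEP300 and 2076 ± 70.6 CPM in siNC libraries (-0.18, 0.0134). All 3 stood lower on average in EP300 siRNA cells. PGK1 was called with H2O2 and not without, a contrast whose own test gave -0.21 ± 0.07 (edgeR adjusted p = 0.139). The PGAM1 call with H2O2 was lost without siNC.H2O2 replicate 7 (-0.14, adjusted p = 0.0743), without siNC.H2O2 replicate 8 (-0.13, adjusted p = 0.101), without siEP300.H2O2 replicate 10 (-0.11, adjusted p = 0.137) and without siEP300.H2O2 replicate 12 (-0.14, adjusted p = 0.0944), and also with no filter on low counts, with only the 2 groups fitted, without both siNC replicate 1 and siNC.H2O2 replicate 7, and with GC and length offsets (adjusted p = 0.0591 to 0.708). PGK1 without H2O2 was called in 4 of 21 alternatives. The PKM call without H2O2 was lost without siNC replicate 3 (-0.16, adjusted p = 0.0652). ENO2, the neuronal enolase, was called in neither siRNA comparison (-0.13 and -0.10), though in 2 and 2 of 21 alternatives.

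H2O2 changed these steps little. With control siRNA, PKM rose by 0.25 (log2) and ENO1 by 0.16, and with EP300 siRNA the values were 0.05 and 0.09, not called. ENO2 fell by 0.21 (log2) with EP300 siRNA and 0.18 with control siRNA, and PGK1 fell by 0.16 with EP300 siRNA. TPI1, GAPDH and PGAM1 were called in neither H2O2 comparison, though GC and length offsets called TPI1 lower in both (-0.16 and -0.12) and GAPDH lower with EP300 siRNA (-0.12). The PKM call was kept in all 21 alternatives, while those of ENO1, ENO2 and PGK1 depended on single libraries. The ENO1 call was lost when any 1 of siNC 1, siNC 2, siNC 3, siEP300 4, siEP300 5, siEP300 6, siNC.H2O2 7 or siNC.H2O2 8 was left out (adjusted p up to 0.131). The ENO2 call was lost with EP300 siRNA when siEP300 4, siEP300 5, siEP300.H2O2 10, siEP300.H2O2 11 or siEP300.H2O2 12 was left out (adjusted p up to 0.117), and with control siRNA when siNC 2, siNC 3, siNC.H2O2 7, siNC.H2O2 9, siEP300.H2O2 11 or siEP300.H2O2 12 was left out (adjusted p up to 0.122). The PGK1 call was lost when siNC 3, siEP300 4, siEP300 5, siEP300.H2O2 10 or siEP300.H2O2 11 was left out (adjusted p up to 0.167).

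Lactate genes held the largest fall among the abundant members. LDHA (chr11:18394388-18408425, plus strand), the lactate dehydrogenase subunit that favours making lactate from pyruvate, had 880.2, 895 and 953 CPM in siEP300.H2O2 libraries, against 1952, 1984 and 1805 CPM in siNC.H2O2 libraries. Without H2O2, LDHA had 1017, 998 and 987 CPM in siEP300 libraries, against 1701, 1648 and 1749 CPM in siNC libraries. Every EP300 siRNA library lay far below every control library. LDHA fell to 47.5% of control with H2O2 (log2 fold change -1.07 ± 0.05 (SE), edgeR adjusted p = 5.05e-10) and to 58.9% without (log2 fold change -0.76 ± 0.05 (SE), edgeR adjusted p = 1.81e-08). H2O2 raised it by 0.17 (log2) with control siRNA (edgeR adjusted p = 0.0212), a call lost without siNC replicate 2 (0.15, adjusted p = 0.0671), without siNC.H2O2 replicate 7 (0.16, adjusted p = 0.0507) and without siNC.H2O2 replicate 8 (0.15, adjusted p = 0.089). With EP300 siRNA the H2O2 difference was -0.14 ± 0.05 (adjusted p = 0.0607), called lower in 9 of 21 alternatives. LDHB, the subunit that favours the return of lactate to pyruvate, was called in neither siRNA comparison (-0.04 ± 0.08 with H2O2 and -0.04 ± 0.08 without) and rose with H2O2 by 0.30 (log2) with EP300 siRNA and 0.30 with control siRNA. LDHA made up 35.7% to 37.6% of the summed FPKM of both subunits in siEP300.H2O2, 52.3% to 55.9% in siNC.H2O2, 43.1% to 45.2% in siEP300 and 54.0% to 59.0% in siNC libraries. LDHA was the larger share in all 6 control siRNA libraries and the smaller in all 6 EP300 siRNA libraries.

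Both monocarboxylate carriers, which move lactate with a proton across the plasma membrane, fell after EP300 siRNA. SLC16A1 (chr1:112911847-112957013, minus strand) had 75.6, 73.4 and 75.3 CPM in siEP300.H2O2 libraries, against 118, 117 and 127 CPM in siNC.H2O2 libraries. Without H2O2, SLC16A1 had 91.1, 89.7 and 95.8 CPM in siEP300 libraries, against 146, 136 and 132 CPM in siNC libraries. The 4 groups did not overlap, with siEP300.H2O2 lowest. EP300 siRNA left 62.0% with H2O2 (log2 fold change -0.69 ± 0.06 (SE), edgeR adjusted p = 9.99e-08) and 66.9% without (log2 fold change -0.58 ± 0.06 (SE), edgeR adjusted p = 5.22e-07). H2O2 lowered it by 0.30 (log2) with EP300 siRNA and 0.19 with control siRNA, the second call being lost without siNC replicate 1 (-0.15, adjusted p = 0.0559) and without siNC.H2O2 replicate 8 (-0.17, adjusted p = 0.0666). SLC16A3, the carrier of cells that export much lactate, averaged 293 ± 21.0 CPM in siEP300.H2O2 and 422 ± 18.1 CPM in siNC.H2O2 libraries (log2 fold change -0.53 ± 0.06 (SE), edgeR adjusted p = 2.10e-06), or -0.18 with GC and length offsets. Without H2O2 it averaged 249.6 ± 2.55 CPM in siEP300 and 342 ± 12.9 CPM in siNC libraries (-0.45 ± 0.06, edgeR adjusted p = 9.17e-06), a call that GC and length offsets ended (-0.07, adjusted p = 0.166). H2O2 raised SLC16A3, unlike SLC16A1, by 0.23 (log2) with EP300 siRNA and 0.30 with control siRNA.

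**Figure D3:**
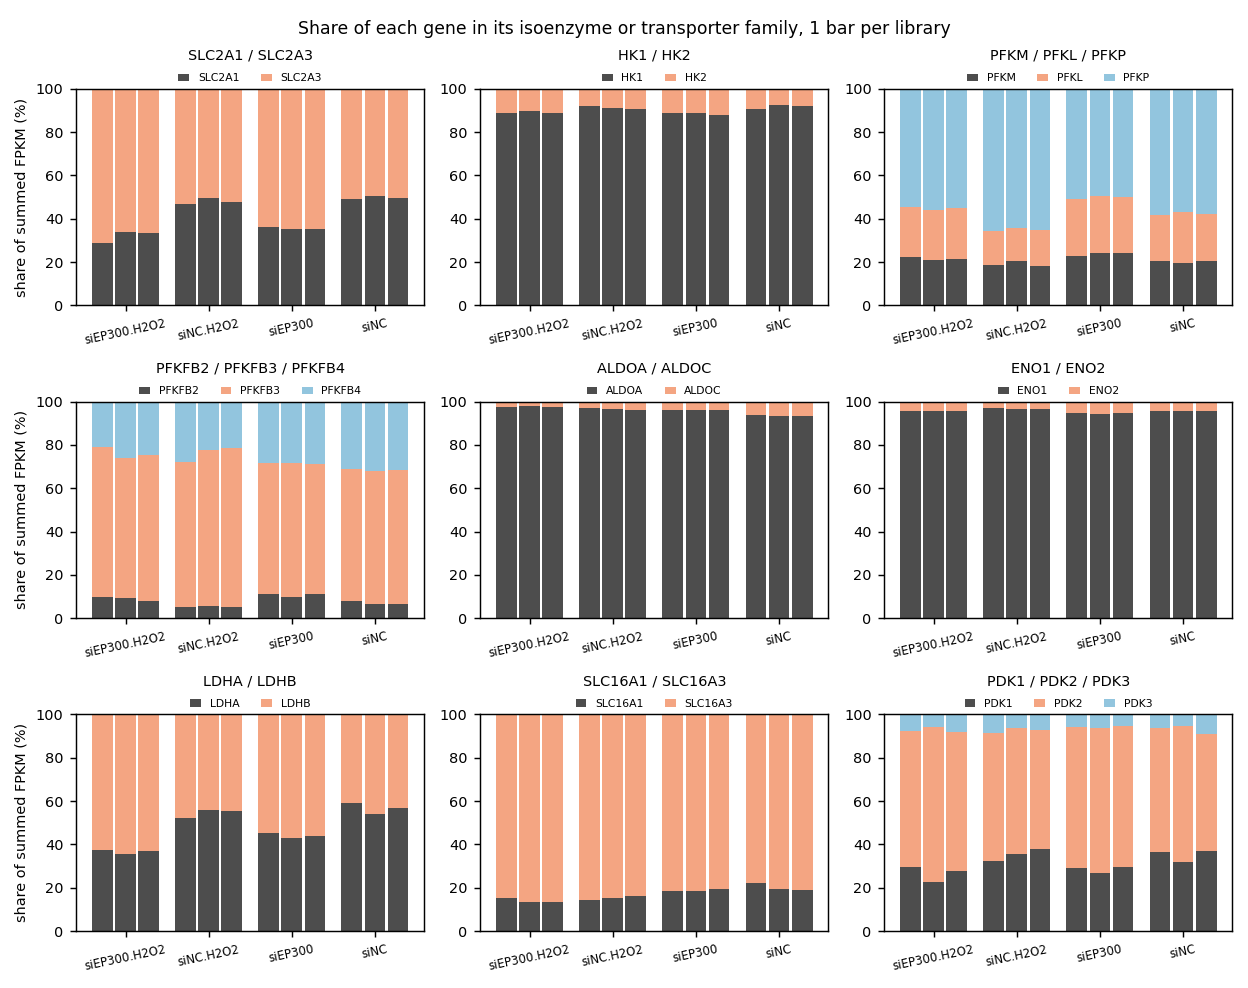
Share of each gene in the summed FPKM of its isoenzyme or transporter family (y axis, percent), 1 stacked bar per library in 4 groups (x axis), without a test. LDHA takes 35.7% to 37.6% of its pair in siEP300.H2O2 against 52.3% to 55.9% in siNC.H2O2 libraries, and SLC2A3 takes 66.2% to 71.2% against 50.4% to 53.4%, while HK1, ALDOA and ENO1 hold most of theirs in every library.

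At the entry of pyruvate to the mitochondria, the 3 member kinases that switch off pyruvate dehydrogenase fell after EP300 siRNA. PDK1 (chr2:172555373-172608669, plus strand) had 22.1, 17.6 and 20.2 CPM in siEP300.H2O2 libraries, against 39.5, 44.5 and 45.0 CPM in siNC.H2O2 libraries. Without H2O2, PDK1 had 26.0, 23.1 and 22.8 CPM in siEP300 libraries, against 50.0, 40.7 and 42.7 CPM in siNC libraries. No EP300 siRNA library came near a control library, and PDK1 had the lowest siRNA fold changes of the set: 46.5% of control with H2O2 (log2 fold change -1.10 ± 0.10 (SE), edgeR adjusted p = 2.19e-07) and 54.0% without (log2 fold change -0.89 ± 0.10 (SE), edgeR adjusted p = 1.57e-06). PDK3 (chrX:24465221-24541862, plus strand), present at low level here, had 4.30, 3.77 and 4.14 CPM in siEP300.H2O2 libraries, against 7.16, 6.92 and 5.58 CPM in siNC.H2O2 libraries. Without H2O2, PDK3 had 4.42, 4.82 and 3.82 CPM in siEP300 libraries, against 6.76, 5.83 and 7.69 CPM in siNC libraries. The groups did not overlap in either comparison (log2 fold change -0.68 ± 0.14 (SE), edgeR adjusted p = 0.000847 with H2O2; -0.64 ± 0.14, adjusted p = 0.00119 without). PDK2, the most abundant of the kinases with 54.3% to 62.5% of their summed FPKM in siNC libraries, fell by 0.40 (log2) and 0.39 (edgeR adjusted p = 0.000144 and 0.000147), calls that GC and length offsets ended. H2O2 gave no call for any of the 3 kinases with either siRNA, though PDK1 with EP300 siRNA (-0.26, adjusted p = 0.0625) was called lower in 6 of 21 alternatives.

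PDHA1, the catalytic subunit those kinases act on, fell by 0.21 (log2) after EP300 siRNA in cells with H2O2 (edgeR adjusted p = 0.0124). This call was lost without siNC.H2O2 replicate 8 (-0.17, adjusted p = 0.0704) and under both limma fits (limma adjusted p = 0.0671 and 0.0662). Without H2O2 the difference was -0.13 ± 0.07, not called, but called in 6 of 21 alternatives. H2O2 raised PDHA1 by 0.19 (log2) with EP300 siRNA and 0.28 with control siRNA; the first call was lost when siEP300 4, siEP300 5, siEP300 6, siEP300.H2O2 11 or siEP300.H2O2 12 was left out (adjusted p up to 0.117), and both were lost under both limma fits (limma adjusted p = 0.0674 to 0.0807). The subunits of the mitochondrial pyruvate carrier, which work as a pair, moved in opposite directions after EP300 siRNA. MPC2 averaged 49.6 ± 3.62 CPM in siEP300.H2O2 and 37.1 ± 4.70 CPM in siNC.H2O2 libraries (log2 fold change 0.42 ± 0.09 (SE), edgeR adjusted p = 0.000841), and 40.5 ± 1.19 CPM in siEP300 and 30.1 ± 2.47 CPM in siNC libraries (0.43 ± 0.09, adjusted p = 0.000752). MPC1 was lower after EP300 siRNA in cells with H2O2 (log2 fold change -0.33 ± 0.12 (SE), edgeR adjusted p = 0.0214). This call was lost without siNC.H2O2 replicate 8 (-0.32, adjusted p = 0.0554) and without siEP300.H2O2 replicate 12 (-0.24, adjusted p = 0.106). In cells without H2O2 the siRNA difference of MPC1 was not called (-0.21 ± 0.11), though called lower in 4 of 21 alternatives. MPC2 also rose with H2O2, by 0.29 (log2) with EP300 siRNA and 0.30 with control siRNA, the first lost without siEP300 replicate 4 (0.29, adjusted p = 0.0541), without siEP300 replicate 6 (0.27, adjusted p = 0.0744) and without siEP300.H2O2 replicate 11 (0.24, adjusted p = 0.086), and the second without siNC replicate 1 (0.24, adjusted p = 0.0658) and without siNC.H2O2 replicate 7 (0.19, adjusted p = 0.0898).

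The pentose phosphate members showed no common direction. TKT, the transketolase of the non-oxidative branch, rose after EP300 siRNA, with 339 ± 25.4 CPM in siEP300.H2O2 and 276 ± 5.48 CPM in siNC.H2O2 libraries (log2 fold change 0.29 ± 0.06 (SE), edgeR adjusted p = 0.000498), and 358 ± 9.40 CPM in siEP300 and 265 ± 10.6 CPM in siNC libraries (0.43 ± 0.06, adjusted p = 1.30e-05). PGD, phosphogluconate dehydrogenase, the second NADPH-making step, fell after EP300 siRNA by 0.23 (log2) with H2O2 and 0.17 without (edgeR adjusted p = 0.000911 and 0.00731), calls that GC and length offsets ended. H2O2 itself lowered PGD by 0.26 (log2) with EP300 siRNA and 0.19 with control siRNA (edgeR adjusted p = 0.00131 and 0.00711). TALDO1, transaldolase, was called in none of the 4 comparisons, with 0.13 with H2O2 and -0.07 without after EP300 siRNA. With GC and length offsets it was called higher after EP300 siRNA both with H2O2 (0.33, edgeR adjusted p = 1.12e-06) and without (0.19, 0.000389), and lower in siNC.H2O2 against siNC cells (-0.15, 0.0062). Without both siNC replicate 1 and siNC.H2O2 replicate 7, TALDO1 was called lower after EP300 siRNA without H2O2 (-0.14, edgeR adjusted p = 0.0476). In that setting it was called higher with H2O2 (0.20, edgeR adjusted p = 0.0112). The within-group axis as covariate also called it higher with H2O2 (0.13, edgeR adjusted p = 0.00971). The siRNA effect with H2O2 minus that without was called higher in both settings (0.34 and 0.20, edgeR adjusted p = 0.0154 and 0.035).

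The glycogen members did not move together after EP300 siRNA. GYS1 (chr19:48968125-48993310, minus strand), the muscle-type glycogen synthase, had 41.4, 44.0 and 47.5 CPM in siEP300.H2O2 libraries, against 25.1, 28.2 and 31.0 CPM in siNC.H2O2 libraries. Without H2O2, GYS1 had 46.4, 48.6 and 47.1 CPM in siEP300 libraries, against 32.8, 28.3 and 27.8 CPM in siNC libraries. Both EP300 siRNA groups lay above both control groups, by 0.66 ± 0.09 (log2) with H2O2 and 0.68 ± 0.08 without (edgeR adjusted p = 1.03e-05 and 6.48e-06). With siNC.H2O2 replicate 7 left out, the log2 fold change with H2O2 was 0.58, under the 1.5-fold line. GBE1 (chr3:81489699-81762161, minus strand), the branching enzyme, had 65.4, 56.4 and 65.7 CPM in siEP300.H2O2 libraries, against 95.0, 103 and 106 CPM in siNC.H2O2 libraries. Without H2O2, GBE1 had 68.1, 67.4 and 74.1 CPM in siEP300 libraries, against 96.5, 89.6 and 90.0 CPM in siNC libraries. The EP300 siRNA libraries were lower in each comparison, with 61.7% of control left with H2O2 (log2 fold change -0.70 ± 0.07 (SE), edgeR adjusted p = 7.85e-07) and 75.9% without (log2 fold change -0.40 ± 0.07 (SE), edgeR adjusted p = 0.000173). PGM1, which links glycogen to glycolysis by moving the phosphate on glucose, fell after EP300 siRNA by 0.43 (log2) with H2O2 and 0.26 without (edgeR adjusted p = 4.10e-05 and 0.00286). No glycogen member was called for H2O2 with either siRNA, though PGM1 and GBE1 with EP300 siRNA were called lower in 8 and 3 of 21 alternatives, and GBE1 with control siRNA higher in 2.

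Whether EP300 siRNA acted differently with H2O2 was tested as an interaction, the siRNA effect with H2O2 minus that without. It was called lower for 3 of 37 members, against 2.21% of all genes, and higher for none, against 1.12%, and none of the 3 reached 1.5-fold lower, against 0.873%; the members' median was -0.07 and that of all genes -8e-04. Of the members, SLC2A1 gave -0.51 ± 0.10 (edgeR adjusted p = 0.0105): its rise with H2O2 was smaller after EP300 siRNA. SLC2A3 gave -0.39 ± 0.08 (edgeR adjusted p = 0.0151), its rise after EP300 siRNA being smaller with H2O2; this call was lost without siEP300 replicate 4 (-0.38, adjusted p = 0.0513) and without siEP300 replicate 6 (-0.37, adjusted p = 0.0518). LDHA gave -0.31 ± 0.08 (edgeR adjusted p = 0.0378), its fall being larger with H2O2; this call was lost when siNC 2, siNC 3, siEP300 4, siEP300 5, siEP300 6, siNC.H2O2 8, siEP300.H2O2 10 or siEP300.H2O2 11 was left out (adjusted p up to 0.116), and under both limma fits (limma adjusted p = 0.0824 and 0.0898). SLC2A1 kept its call in all 20 alternatives that apply (adjusted p from 0.000188 to 0.0421). For HK2, PFKFB3, GBE1 and PFKL, whose siRNA effects also differed in size, the interaction was -0.30, -0.25, -0.30 and 0.30, none called (edgeR adjusted p = 0.32, 0.158, 0.121 and 0.0847). These turned on the method: of 20 alternatives, 2 called HK2, 2 PFKFB3, 4 GBE1 and 7 PFKL, DESeq2 and both limma fits among the last.

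**Figure D4:**
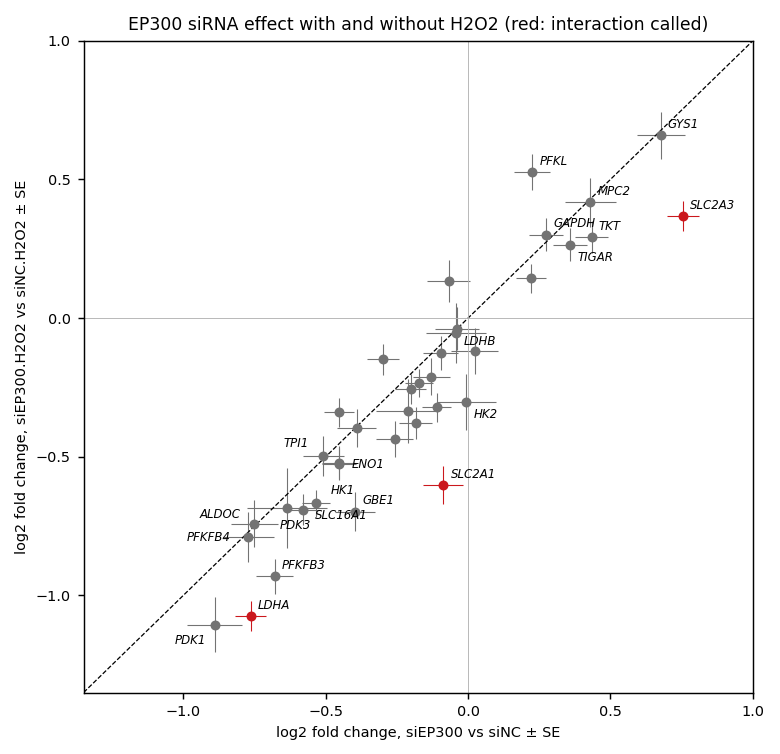
Log2 fold change of each of the 37 genes after EP300 siRNA with H2O2 (y axis, siEP300.H2O2 vs siNC.H2O2) against that without H2O2 (x axis, siEP300 vs siNC), with standard errors as bars; the dashed line marks equal effects and red points the genes called in the interaction. SLC2A1 (-0.60 with, -0.09 without), SLC2A3 and LDHA are red and lie under the line.

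Other genes of the same pathways, in 7 lists, showed what the 37 leave out; counts are of genes tested and changes are log2 fold changes after EP300 siRNA, first with and then without H2O2. Over all genes tested, 30.6% were lower and 28.4% higher with H2O2, and 31.4% lower and 30.1% higher without, and many of the counts below lie near these shares. Of 10 other glycolysis genes, 2 were lower and 3 higher with H2O2, and 4 lower and 2 higher without (medians -0.27 and -0.19); PGAM5, a mitochondrial phosphatase despite its name, had -0.75 and -0.93, and SLC37A4, the carrier of glucose phosphate into the endoplasmic reticulum, -0.93 and -1.19. Of 12 other pyruvate genes, 3 were lower and 4 higher with H2O2, and 4 lower and 6 higher without (medians 0.01 and 0.18). DLD, the dihydrolipoamide dehydrogenase subunit of the pyruvate dehydrogenase complex, had 44.9, 42.0 and 41.1 CPM in siEP300.H2O2 libraries, against 114, 127 and 117 CPM in siNC.H2O2 libraries, and 33.7, 34.1 and 36.8 CPM in siEP300 libraries, against 127, 119 and 109.7 CPM in siNC libraries. It fell by 1.48 (log2) with H2O2 and 1.76 without (edgeR adjusted p = 2.74e-10 and 8.37e-11), beyond any of the 37. PCK2, mitochondrial phosphoenolpyruvate carboxykinase, rose by 1.08 (log2) and 1.51, and ME1, the cytosolic malic enzyme that makes NADPH, by 0.96 and 1.36. Of 9 other pentose phosphate genes, 3 were lower and 3 higher with H2O2, and 4 lower and 3 higher without (medians -0.11 and -0.19), with PGLS, the lactonase, at -0.87 and -1.18 and RPE, the epimerase, at 0.59 and 0.68.

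Of 18 other glycogen genes, 5 were lower and 5 higher with H2O2, and 5 lower and 7 higher without (medians 0.06 and 0.09). PYGL, the liver-type phosphorylase that breaks glycogen down, fell by 1.02 (log2) with H2O2 and 0.83 without (edgeR adjusted p = 3.86e-10 and 3.08e-09), while GYS1 rose. PGM2L1 rose by 0.99 (log2) and 0.88, and PHKB, a phosphorylase kinase subunit, by 0.24 and 0.73. Of 11 other sugar and monocarboxylate transporters, 4 were lower and 1 higher with H2O2, and 5 lower and 1 higher without (medians -0.15 and -0.10). SLC2A5, the fructose transporter, had 0.221, 0.229 and 0.496 CPM in siEP300.H2O2 libraries, against 1.94, 2.20 and 2.60 CPM in siNC.H2O2 libraries, and 0.328, 0.340 and 0.327 CPM in siEP300 libraries, against 2.53, 2.50 and 2.70 CPM in siNC libraries, so it was low everywhere and lower after EP300 siRNA (-2.80 and -2.93, edgeR adjusted p = 4.96e-07 and 1.88e-07). SLC16A4 rose by 0.98 (log2) and 0.93. Of 15 genes listed as regulators, 5 were lower and 3 higher with H2O2, and 5 lower and 4 higher without (medians -0.07 and -0.04). Not all of them are transcription factors: ARRDC4, a glucose-induced arrestin, had -0.76 and -0.85. HIF1A, the oxygen-regulated HIF subunit, chosen after its values were seen, was lower after EP300 siRNA with H2O2 (log2 fold change -0.37 ± 0.09 (SE), edgeR adjusted p = 0.00213) and not called without (-0.04 ± 0.09), with H2O2 raising it by 0.49 in control siRNA cells. EPAS1, of the same list, averaged 227 CPM in siEP300.H2O2, 218 in siNC.H2O2, 186 in siEP300 and 157 in siNC libraries. In the same order ARNT averaged 51.7, 57.5, 58.5 and 60.1 CPM, and HIF1AN 205, 149, 191 and 132. Unlike HIF1A, HIF1AN was higher after EP300 siRNA, without overlap of libraries, both with and without H2O2. EPAS1 was higher without overlap only in cells without H2O2, and the ARNT libraries overlapped in both. The edgeR results of these genes are not given here. The part of HIF1A in the changes of other genes was not tested.

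HIF targets outside glycolysis were mostly lower after EP300 siRNA with H2O2. This list, too, was chosen with earlier results of these data known, so its counts describe it and do not test it. Of 19 tested, 12 were lower and 1 higher in siEP300.H2O2 than in siNC.H2O2 cells, against 30.6% and 28.4% of all genes, and 8 lower and 5 higher in siEP300 than in siNC cells, against 31.4% and 30.1% (medians -0.31 and -0.06). CA9, a carbonic anhydrase and a HIF marker, had 6.40, 5.77 and 8.10 CPM in siEP300.H2O2 libraries, against 58.7, 55.3 and 45.5 CPM in siNC.H2O2 libraries, and 16.5, 17.3 and 16.2 CPM in siEP300 libraries, against 72.8, 89.0 and 74.4 CPM in siNC libraries. It fell by 2.97 (log2) with H2O2 and 2.24 without (edgeR adjusted p = 1.47e-10 and 6.12e-10). NDRG1, a stress-induced HIF target, fell by 1.34 (log2) with H2O2 and 0.69 without (edgeR adjusted p = 3.26e-10 and 2.28e-07). ERO1A, the oxidase of disulfide formation, rose by 0.92 (log2) with H2O2 and 1.15 without (edgeR adjusted p = 4.22e-08 and 4.07e-09). In the interaction 6 of the 19 were called lower, against 2.21% of all genes, with DDIT4, an inhibitor of mTOR, at -1.18 ± 0.14 and VEGFA, the angiogenic growth factor, at -0.85 ± 0.10 (edgeR adjusted p = 0.000553 and 0.000613). VEGFA had 62.3, 68.8 and 66.9 CPM in siEP300.H2O2 libraries, against 106, 125 and 124 CPM in siNC.H2O2 libraries, and 54.2, 56.9 and 59.0 CPM in siEP300 libraries, against 60.6, 53.5 and 55.6 CPM in siNC libraries: the siNC.H2O2 libraries alone stood high, as they did for SLC2A1.

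For H2O2 itself, the other lists gave few large calls, and the counts stand beside 15.9% of all genes higher and 15.1% lower with EP300 siRNA, and 17.8% higher and 17.4% lower with control siRNA. With EP300 siRNA, CA9 fell by 1.30 (log2), PCK2 by 0.78, SLC2A12 by 0.83, EPM2A by 0.77, DDIT4 by 0.71 and SLC16A7 by 0.64, and ARRDC4 rose by 0.65. With control siRNA, VEGFA rose by 1.07 (log2), ADM, a vasodilator peptide, by 1.01, PDP1, the phosphatase that reactivates pyruvate dehydrogenase, by 0.68 and MYC by 0.59. SLC37A4 fell by 0.67 (log2) and SLC16A7 by 0.67 with control siRNA. All of these were called by edgeR at an adjusted p of 0.00336 or less. Of the 10 other glycolysis genes, 1 was higher and 2 lower with EP300 siRNA, and 1 higher and 3 lower with control siRNA. Of the 19 HIF targets, 2 were higher and 7 lower with EP300 siRNA, and 5 higher and 3 lower with control siRNA. Of the 12 pyruvate, 9 pentose phosphate, 18 glycogen and 11 transporter genes and the 15 regulators, between 0 and 7 were called in a direction in any H2O2 comparison.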

How the data were processed

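RNA of 12 AC16 libraries was compared in 4 groups of 3, grouped by the siRNA and H2O2 in their titles. The authors deposited estimated counts and FPKM per gene symbol; HISAT and Bowtie2 with GRCh38.p13 are named per the submitters' processing notes, while versions, roles, counting program, annotation, strand and filters were not stated in those sources. Estimated counts were rounded for the tests; 12% to 13.8% of the deposited values per library had a decimal part. No column was left unmapped (0).

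Each comparison used the quasi-likelihood test of edgeR 4.0.16 under R 4.3.3 (glmQLFit and glmQLFTest, TMM, filterByExpr, 1 mean per group over all 12 libraries, two-sided). A gene counted as called when its adjusted p (Benjamini-Hochberg) was under 0.05 over the 13171 genes tested, with a second rule of at least 1.5-fold. SE is of the fitted log2 fold change, computed here from the deposited counts, as were CPM. The script was tested on simulated data. Replicate pairs differed by more than sampling noise. Gene positions, GC and length come from GENCODE release 29 (GRCh38), promoters from RefSeq GRCh38.p14.

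The members and lists were chosen with earlier results of these data known. All 37 members may be named, with every library printed for those called at 1.5-fold or in the interaction; of the 7 other lists, up to 2 genes per comparison with the smallest adjusted p among those called at 1.5-fold, and EP300 and MLF1 as label checks. Alternatives were RLE size factors, no low-count filter, DESeq2 1.42.0, a fit of the 2 groups compared, limma 3.58.1 on log2(FPKM + 1) and log2(FPKM + 0.1) of the deposited FPKM, a within-group axis as covariate, each library left out, the 2 libraries at the ends of that axis left out, and, added later, GC and length offsets. HIF1A, EPAS1, ARNT and HIF1AN were named outside that rule. PGK2, FBP2 and PDK4 were not analysed here. A gene of the other lists that the rule names is not reported here.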

Additional observations from a re-analysis of the deposited data

Results flagged for a closer look

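For 3 members the EP300 siRNA effect differed between cells with and without H2O2 by the interaction term of the edgeR fit over all genes. SLC2A1 differed by -0.51 on the log2 scale (edgeR adjusted p = 0.0105), with siRNA effects of -0.60 with H2O2 and -0.09 without. SLC2A3 differed by -0.39 (edgeR adjusted p = 0.0151), with effects of 0.37 with H2O2 and 0.75 without; the call was lost without siEP300 replicate 4 or 6. LDHA differed by -0.31 (edgeR adjusted p = 0.0378), with effects of -1.07 with H2O2 and -0.76 without; the call was lost when any of 8 single libraries was left out and under both limma fits (limma adjusted p = 0.0824 and 0.0898).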

How the results depend on the processing

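The siRNA counts of lower and higher members (24 and 8 with H2O2, 19 and 8 without) stayed within 1.5 times under every alternative. Leaving out the interaction, there were 3108 pairs of a member's fold change and an alternative. Of these, 2943 kept their call or stayed uncalled, and uncalled values that changed sign are counted among them. A call was lost in 92 and gained in 71, and 2 changed sign with a call in the main fit or the alternative. With GC and length offsets (chosen after seeing the data), these 2 gave, for siEP300 against siNC, 0.0525 for PFKP (edgeR adjusted p = 0.365) and 0.19 for TALDO1 (edgeR adjusted p = 0.000389). Those offsets also gave 4 members higher by at least 1.5-fold in siEP300 against siNC and 2 in siEP300.H2O2 against siNC.H2O2, 10 lower in siEP300.H2O2 against siEP300, and in the interaction 1 member higher with 405 and 639 of all genes higher and lower. With the within-group axis as covariate, 9 members were lower in siEP300.H2O2 against siEP300, and the interaction called 2 members higher and 8 lower and 687 and 1042 of all genes. Without both siNC replicate 1 and siNC.H2O2 replicate 7 these were 9, 2, 7, 815 and 1162, with 1 interaction at least 1.5-fold lower and 0 members at least 1.5-fold higher in siEP300.H2O2 against siNC.H2O2. limma on log2(FPKM + 1) gave 1 member at least 1.5-fold higher in siEP300 against siNC, 2 in siNC.H2O2 against siNC, and 1 member and 325 genes higher in the interaction; a pseudocount of 0.1 gave 1 and 265, and DESeq2 1 member. Fitting only the 2 groups compared left 2 members lower in siNC.H2O2 against siNC and 8 in siEP300.H2O2 against siEP300. Leaving out 1 library gave 59 to 244 genes higher and 137 to 474 lower in the interaction, highest without siNC replicate 1 or siNC.H2O2 replicate 7, lowest without siEP300 replicate 4 or 6, and over 1.5 times under the main counts also without siNC replicate 2 or 3, siEP300 replicate 5, siNC.H2O2 replicate 8 or siEP300.H2O2 replicate 11 or 12. Members in the interaction numbered 0 to 1 higher (1 without siNC replicate 1) and 1 to 4 lower (1 without siEP300 replicate 4 or 6). In siEP300.H2O2 against siEP300, 3 to 8 were lower (3 without siEP300 replicate 4 or 5 or siEP300.H2O2 replicate 11, 8 without siNC.H2O2 replicate 7), 0 to 1 at least 1.5-fold lower (ALDOC) and 0 to 1 higher (TIGAR at 0.59 without siEP300 replicate 5). In siEP300.H2O2 against siNC.H2O2, 0 to 1 were at least 1.5-fold higher (GYS1, 0 without siNC.H2O2 replicate 7), and in siNC.H2O2 against siNC 0 to 1 lower (ALDOC, 0 without siNC replicate 2). Where settings moved a value, the cause was not tested. Low members such as PDK3, PFKFB2 and MPC1, whose counts are the smallest, have the widest errors. No paired analysis was possible because replicate numbers run from 1 to 12 and no group shares a number with another.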
